A study of Mus musculus with 6 samples.

Results

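The genes described here encode the subunits of the proteasome, the proteins that assemble it and the proteins that open or inhibit it. They were measured in mouse B cells labelled WT or PP2Aa-deficient, PP2Aa being the scaffold on which the phosphatase PP2A is built. They were taken by name, as every gene symbol that starts with Psm, a letter from a to g and a digit, apart from Psmb8, Psmb9 and Psmb10, which encode the interferon-inducible catalytic subunits. The rule found 47 of the 22788 genes in the deposited table. Of these, 16 encode the core particle, 17 the base and lid of the regulatory particle, 7 assembly chaperones, 5 activators and 1 an inhibitor. The remaining one, Psmc3ip, shares the name only, since its product is a partner of recombination proteins.

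RNA was measured in 6 libraries, 3 from WT and 3 from PP2Aa-deficient B cells, all from mice of 8 weeks on a C57BL/6 background. The WT mice were labelled wild type, and the PP2Aa-deficient mice carried a floxed Ppp2r1a gene (flox/flox) together with a Cre recombinase. No group in the labels carried the Cre without the floxed gene, so effects of the Cre and of the floxed gene cannot be told apart. The tissue label says spleen, whereas the protocols describe cells washed from the peritoneal cavity, and no step that selects B cells is described. Whether each library came from a separate mouse is not stated.

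The proteasome is the protease that breaks down proteins tagged with ubiquitin. Its core particle is a barrel of stacked rings, outer rings of alpha subunits that gate the entry and inner rings of beta subunits, among which the products of Psmb5, Psmb6 and Psmb7 carry the catalytic sites. The regulatory particle sits on the ends of the barrel: the base holds a ring of ATPases that unfold substrates, and the lid holds the enzyme that removes ubiquitin. In lymphocytes the catalytic subunits are in part replaced by those of the immunoproteasome, and the PA28 activator encoded by Psme1 and Psme2 takes part in the supply of peptides to MHC class I. Cells that secrete antibody put a heavy load of misfolded protein on the proteasome.

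Ppp2r1a was at 85.7, 85.4 and 83.7 FPKM in the WT libraries and 31.3, 56.2 and 28.2 in the PP2Aa-deficient ones, with no overlap of the groups, so the floxed gene was lower in every library labelled deficient. Its limma adjusted p was 0.168. Relative depth lay between 0.98 and 1.76, which with GENCODE M21 transcript lengths corresponds to about 2040000 to 3660000 fragments, deepest in WT replicate 2. B cell genes were high in all libraries, with Cd79a at 1519 to 1906 FPKM and Cd79b at 627 to 765. Markers of other cells were also measured. Among 7 T cell markers Lck ranged from 10.8 to 28.9 FPKM and Cd3e from 0 to 0.752, and among 8 macrophage markers Apoe ranged from 77.3 to 326, Lyz2 from 8.49 to 13.6, Cd68 from 9.76 to 12.5 and Csf1r from 0.707 to 2.202. Of 5 mesothelial and stromal markers, Msln, Col1a1, Col3a1 and Dcn were listed at 0 in every library.

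No proteasome gene passed the test between WT and PP2Aa-deficient B cells after adjustment over all genes. Of the 47 genes, 45 reached the filter of at least 1 FPKM in at least 3 libraries, and 0 of these 45 passed limma's moderated test at an adjusted p under 0.05, against 3 of all 9425 genes tested (0.0318%). An unadjusted limma p under 0.05 was reached by 3 of 45, namely Psme2, which was higher, and Psmb4 and Psme2b, which were lower, where 9.47% of all genes tested reached that level (5.06% higher, 4.41% lower). The same 3 were the only members whose 3 WT and 3 PP2Aa-deficient values did not overlap, where 15.1% of all genes tested had such values (7.7% higher, 7.4% lower). The members' shares over both directions were thus no larger than those of all genes. In bulk RNA such as this, fewer cells of a type and less RNA per cell cannot be told apart.

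The median log2 change of the 45 members was -0.044, with 18 above and 27 below WT, against -0.007 over all genes tested. Changes are PP2Aa-deficient against WT on the scale of log2(FPKM + 1), which understates those of low genes. The median size of a change, whatever its sign, was 0.12 among the members and 0.17 over all genes tested. The median SE was likewise smaller among the members, at 0.16 against 0.20, so these sizes were not measured with equal precision. For 41 of the 45 members the 95% interval of the change lay within 1 log2 unit on both sides of WT, and for 22 it lay within 0.5. A p that missed the threshold does not show that a gene was equal in both groups, and these intervals give the sizes of change that the data leave possible. All p-values reflect only how far these libraries spread, which may be technical.

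**Figure D1:**
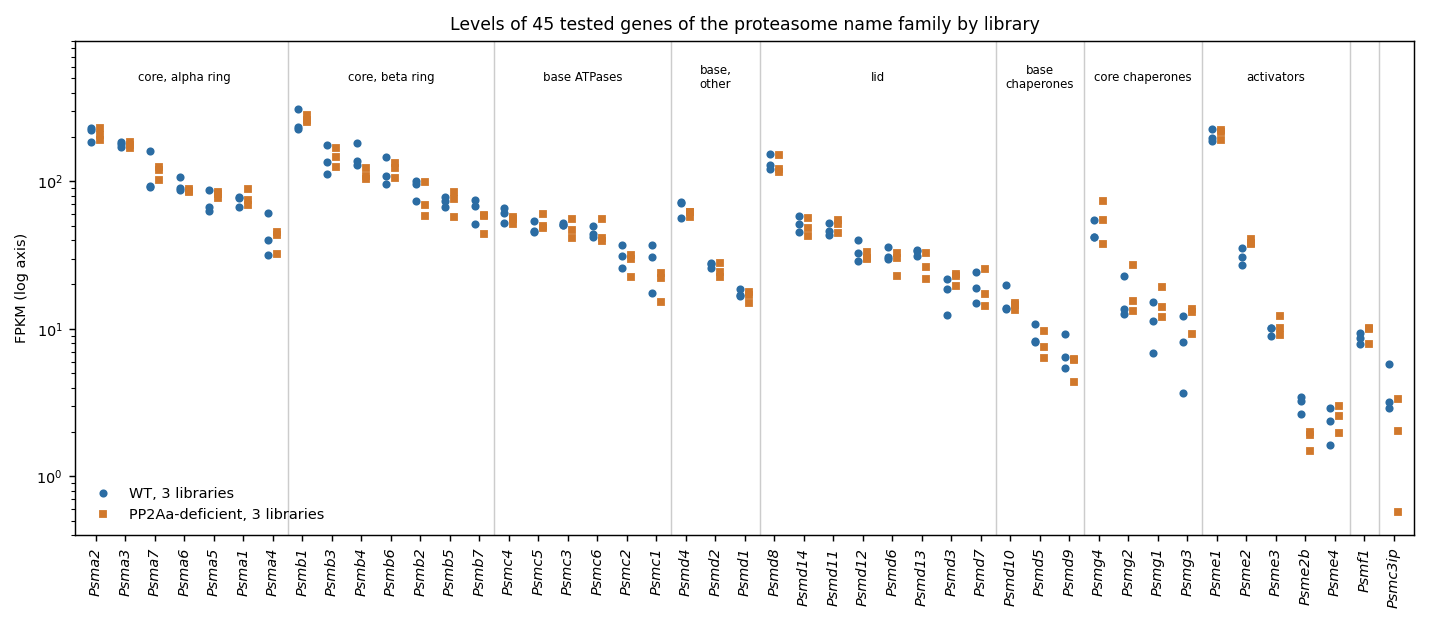
FPKM on a log axis of the 45 genes of the name family that were tested, grouped by role, with 1 point for each of the 6 libraries (WT circles, PP2Aa-deficient squares). Psmb1 is the highest gene, at 226 to 309 FPKM, and the groups overlap in all genes except Psmb4, Psme2 and Psme2b.

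The alpha ring genes were among the best expressed members. Psma2 had the highest mean of the ring, at 230.0, 186 and 222 FPKM in the WT libraries and 207, 230.1 and 189.6 in the PP2Aa-deficient ones, and Psma4 the lowest, at 61.2, 40.3 and 31.8 FPKM in the WT libraries and 45.6, 32.1 and 43.4 in the PP2Aa-deficient ones. The groups overlapped for both. Their log2 changes were -0.026 and -0.098, and those of the 7 tested alpha genes ran from -0.12 to 0.17. The smallest p of the ring belonged to Psma5, at 88.1, 63.3 and 66.7 FPKM in the WT libraries and 84.99, 82.6 and 76.6 in the PP2Aa-deficient ones (log2 change 0.17, limma adjusted p = 0.783), and Psma6, at 107, 88.1 and 90.1 FPKM in the WT libraries and 85.2, 86.3 and 88.9 in the PP2Aa-deficient ones (log2 change -0.12, limma adjusted p = 0.808). In both genes WT replicate 1 held the highest value. The WT range of Psma5 covered all PP2Aa-deficient values, while in Psma6 only PP2Aa-deficient replicate 3 reached into it. Psma8, which encodes the alpha subunit of the proteasome of the male germline, was listed at 0 in 4 libraries and did not exceed 0.347 FPKM in the others.

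In the beta ring, Psmb1 was the best expressed gene of all 47, at 309, 226 and 234 FPKM in the WT libraries and 284, 259 and 252 in the PP2Aa-deficient ones, and it is the only member on the chromosome that also holds Ppp2r1a (log2 change 0.062, limma adjusted p = 0.931). Psmb4, a structural subunit without a catalytic site, was at 183, 138 and 128 FPKM in the WT libraries and 109, 124 and 104 in the PP2Aa-deficient ones. All 3 PP2Aa-deficient values lay below the lowest WT value, with means of 149.9 ± 29.4 FPKM for WT and 112 ± 10.3 for PP2Aa-deficient B cells (SD, n = 3), or 74.98% of WT. The difference did not pass over all genes (log2 change -0.40, SE 0.15, 95% interval -0.75 to -0.045, limma adjusted p = 0.472). Without WT replicate 1 the log2 change was -0.25.

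Among the catalytic subunits, Psmb5, the site that cuts after hydrophobic residues, was at 78.003, 67.6 and 73.9 FPKM in the WT libraries and 84.9, 57.02 and 75.9 in the PP2Aa-deficient ones. Psmb6, the site that cuts after acidic residues, was at 147, 96.3 and 109 FPKM in the WT libraries and 132, 124 and 106 in the PP2Aa-deficient ones. Psmb7, the site that cuts after basic residues and the lowest of the tested beta genes, was at 68.1, 51.1 and 75.3 FPKM in the WT libraries and 58.7, 44.1 and 57.9 in the PP2Aa-deficient ones. The groups overlapped in each, and the log2 changes were -0.028, 0.052 and -0.27 (limma adjusted p = 0.977, 0.953 and 0.703). Psmb11, the catalytic subunit of thymic epithelium, did not exceed 0.545 FPKM in any library and was not tested.

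The promoters of Psmb5 and Psmb6 are shown because both hold the core of the antioxidant response element, TGACNNNGC, through which the transcription factor encoded by Nfe2l1 is known to raise proteasome genes. The RefSeq windows of build GRCm38.p6 run from 250 bases before to 50 bases after the start site, that of Psmb5 at chr14:54617946-54618245 on the minus strand and that of Psmb6 at chr11:70525107-70525406 on the plus strand. They are printed along the gene's strand, with the element in capitals.
Psmb5: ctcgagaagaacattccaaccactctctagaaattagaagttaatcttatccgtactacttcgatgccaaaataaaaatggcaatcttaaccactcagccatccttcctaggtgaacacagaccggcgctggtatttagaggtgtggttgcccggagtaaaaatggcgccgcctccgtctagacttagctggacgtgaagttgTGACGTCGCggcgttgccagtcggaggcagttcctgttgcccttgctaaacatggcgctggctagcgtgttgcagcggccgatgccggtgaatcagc
Psmb6: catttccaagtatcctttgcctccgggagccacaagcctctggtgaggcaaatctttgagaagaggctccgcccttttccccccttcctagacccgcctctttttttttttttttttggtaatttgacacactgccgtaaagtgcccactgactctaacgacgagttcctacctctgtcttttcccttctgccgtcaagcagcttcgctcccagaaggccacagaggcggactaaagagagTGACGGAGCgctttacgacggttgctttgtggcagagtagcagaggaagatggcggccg
Of the 39 members with a promoter in the table, 6 held this core on either strand (15.4%), beside 13.99% of all 27025 genes in the table and 17.2% of the 7234 tested genes with a promoter. They were Psmb5, Psmb6, Psmc6, Psmd9, Psmd12 and Psme4. On either strand, the letters CCAAT were found for 14 members (35.9%, beside 42.9% of tested genes) and CACGTG for 3 (7.7%, beside 12.7%). CCGGAAG, a binding sequence of ETS factors chosen after the values were seen, was found for 15 members (38.5%, beside 23.5% of tested genes). A match is a run of letters and was not tested as a binding site.

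The interferon-inducible subunits left out by the rule were set beside the subunits they replace. Psmb8, which takes the place of Psmb5, ranged from 207 to 324 FPKM over the 6 libraries. The ratio of Psmb8 to Psmb5 was 4.15, 3.06 and 3.01 in the WT and 3.199, 4.38 and 3.48 in the PP2Aa-deficient libraries. The ratio of Psmb9 to Psmb6 was 1.31, 0.903 and 1.09 in the WT and 0.971, 0.851 and 1.12 in the PP2Aa-deficient libraries. The ratio of Psmb10 to Psmb7 was 0.721, 0.894 and 0.619 in the WT and 0.933, 1.12 and 0.766 in the PP2Aa-deficient libraries. The inducible gene was thus above its constitutive partner in every library for Psmb8, near it for Psmb9 and, in all but 1 library, below it for Psmb10. The groups overlapped in all 3 ratios (two-sided exact permutation p = 0.5, 0.5 and 0.2, where 3 against 3 cannot go below 0.1). The 3 genes themselves had log2 changes of 0.088, -0.11 and 0.066.

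Of the 9 base genes, 8 had a log2 change below WT, and the median was -0.12. None passed over all genes, and none reached an unadjusted limma p under 0.05. Among the ATPases, Psmc4 had the highest level, at 61.3, 66.3 and 52.5 FPKM in the WT libraries and 51.6, 55.98 and 57.4 in the PP2Aa-deficient ones (log2 change -0.12, limma adjusted p = 0.834). Psmc1 had the lowest level and the smallest p of the ring, at 37.2, 30.7 and 17.6 FPKM in the WT libraries and 24.1, 15.2 and 22.3 in the PP2Aa-deficient ones (log2 change -0.42, SE 0.28, 95% interval -1.053 to 0.21, limma adjusted p = 0.693). Its groups overlapped because WT replicate 3 lay below 2 of the PP2Aa-deficient libraries. Its log2 change was -0.20 without WT replicate 1, -0.72 without WT replicate 3 and -0.23 without PP2Aa-deficient replicate 2. Psmd4, a subunit that binds ubiquitin chains, was at 71.4, 56.9 and 71.998 FPKM in the WT libraries and 57.03, 62.5 and 61.97 in the PP2Aa-deficient ones (log2 change -0.13, limma adjusted p = 0.814). Psmd2, a scaffold at which ubiquitin-like proteins dock, was at 27.6, 27.9 and 25.7 FPKM in the WT libraries and 28.05, 24.2 and 22.6 in the PP2Aa-deficient ones (log2 change -0.12, limma adjusted p = 0.846). Psmd1, the other large scaffold of the base, ranged from 15.04 to 18.6 FPKM, with a log2 change of -0.069. The groups overlapped in all 3 of these genes. Their summed level was 116, 103 and 115 in the WT and 102, 102 and 102 in the PP2Aa-deficient libraries, so the sums did not overlap although the single genes did, and this sum was not tested. It was also not scaled to the summed FPKM of all genes. That total was 553540, 454320 and 460890 in the WT and 485560, 544950 and 493600 in the PP2Aa-deficient libraries. The lack of overlap applies to the unscaled sums only.

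Of the 8 lid genes of the name rule, 2 lay above and 6 below WT, and the median log2 change was -0.064. Shfm1, a lid subunit that the rule does not reach, lay above WT (log2 change 0.51) and is described with the partners. Psmd8 was the best expressed, at 154, 121 and 130.1 FPKM in the WT libraries and 150.4, 117 and 121 in the PP2Aa-deficient ones, and Psmd7, the partner of the lid's deubiquitinase, the lowest, at 19.02, 14.9 and 24.2 FPKM in the WT libraries and 25.4, 14.2 and 17.2 in the PP2Aa-deficient ones. Psmd13, a structural subunit of the lid, was at 33.8, 31.1 and 34.02 FPKM in the WT libraries and 32.5, 26.1 and 21.9 in the PP2Aa-deficient ones (log2 change -0.30, SE 0.16, 95% interval -0.67 to 0.062, limma adjusted p = 0.602). Psmd3, another one, was at 21.8, 18.5 and 12.4 FPKM in the WT libraries and 23.7, 19.6 and 22.7 in the PP2Aa-deficient ones (log2 change 0.34, SE 0.21, 95% interval -0.13 to 0.81, limma adjusted p = 0.663). In Psmd13, PP2Aa-deficient replicate 1 lay within the WT range, and in Psmd3 the second PP2Aa-deficient library did. Without PP2Aa-deficient replicate 3 the log2 change of Psmd13 was -0.17, and without WT replicate 3 that of Psmd3 was 0.12.

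The members of each particle were compared as sums of FPKM, which is scaled by transcript length. These sums hold only genes of the name rule and are not whole particles. The core sum leaves out Psmb8, Psmb9 and Psmb10, and the base and lid sum leaves out Shfm1. The summed level of the 16 core genes was 1967, 1474 and 1619 in the WT and 1692, 1641 and 1571 in the PP2Aa-deficient libraries, and that of the 17 base and lid genes was 798, 709 and 730.1 in the WT and 770.2, 657 and 698 in the PP2Aa-deficient libraries. The ratio of the first sum to the second was 2.47, 2.08 and 2.22 in the WT and 2.197, 2.497 and 2.25 in the PP2Aa-deficient libraries. The groups overlapped in both sums and in the ratio.

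**Figure D2:**
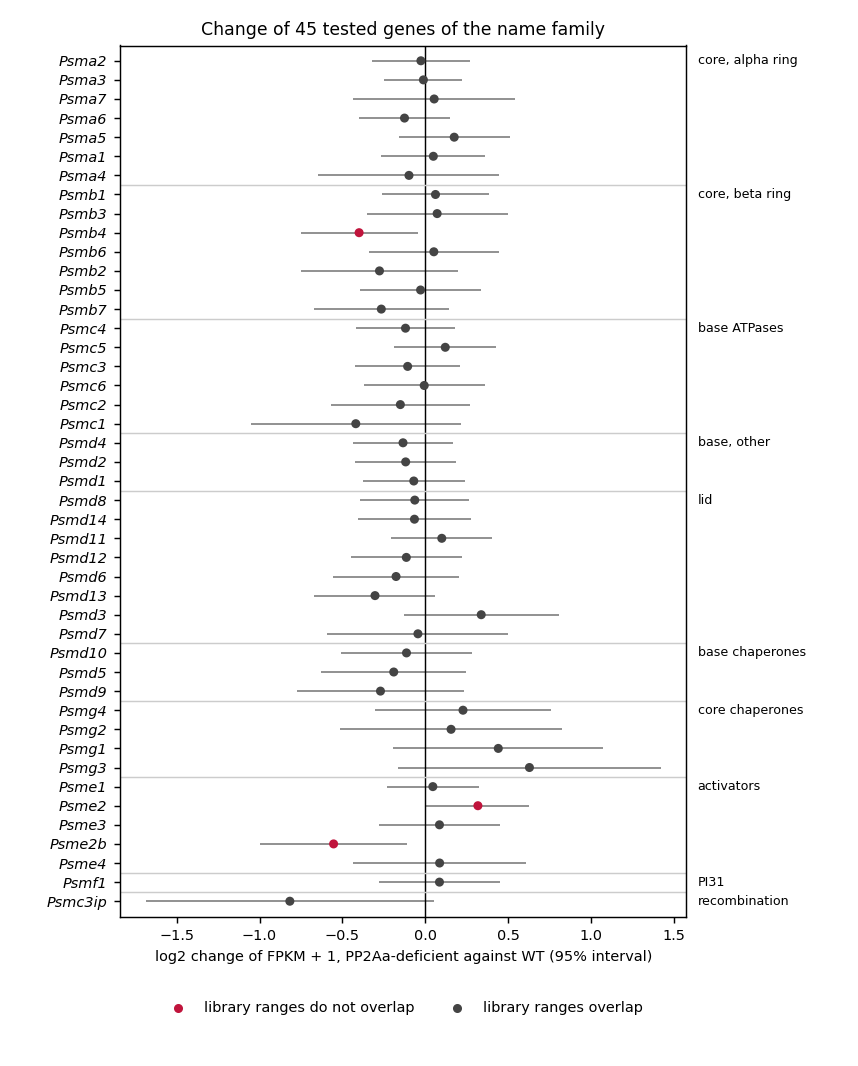
Log2 change of FPKM + 1 in PP2Aa-deficient against WT B cells for the 45 tested genes, by role and within each role by level, with 95% intervals from limma (n = 3 libraries per group). The intervals of Psmb4, Psme2 and Psme2b, drawn with a coloured point because their library ranges do not overlap, exclude 0 before adjustment, and all others include it.

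Chaperones that build the core and chaperones that build the base lay on opposite sides of WT, with no gene past the threshold. The 4 core chaperones were all above WT (median log2 change 0.33) and the 3 base chaperones all below it (-0.19). The difference between these small sets was not tested, and the values below moved with single libraries. Psmg3, whose product pairs with that of Psmg4, was at 12.2, 3.68 and 8.13 FPKM in the WT libraries and 9.18, 13.7 and 12.97 in the PP2Aa-deficient ones (log2 change 0.63, SE 0.35, 95% interval -0.16 to 1.42, limma adjusted p = 0.622). Psmg1, whose product guides formation of the alpha ring, was at 11.4, 6.82 and 15.2 FPKM in the WT libraries and 12.002, 19.2 and 13.97 in the PP2Aa-deficient ones (log2 change 0.44, SE 0.28, 95% interval -0.19 to 1.07, limma adjusted p = 0.675). Psmg4, the best expressed chaperone, was at 54.4, 41.8 and 41.7 FPKM in the WT libraries and 54.9, 73.96 and 37.8 in the PP2Aa-deficient ones (log2 change 0.23, limma adjusted p = 0.823). The lowest value of Psmg3 and of Psmg1 came from WT replicate 2 and the groups overlapped in all 4 genes. Without WT replicate 2 the log2 change was 0.22 for Psmg3 and 0.15 for Psmg1, and with a term for relative depth 0.22 and 0.19. Psmg3 stood at 0.97 without WT replicate 1, and Psmg1 at 0.68 without WT replicate 3 and 0.26 without PP2Aa-deficient replicate 2. Psmg4 was at -0.001 without PP2Aa-deficient replicate 2 and at 0.083 with the depth term. Psmg3 rested on about 12 to 27 fragments per library and Psmg1 on about 25 to 41, with the longest coding transcript of GENCODE M21.

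Psmd9, Psmd5 and Psmd10 hold ATPases of the base until the ring is complete. Psmd9 was at 9.23, 6.41 and 5.41 FPKM in the WT libraries and 4.37, 6.24 and 6.12 in the PP2Aa-deficient ones (log2 change -0.27, limma adjusted p = 0.773). Psmd5 ranged from 6.39 to 10.7 FPKM (log2 change -0.19, limma adjusted p = 0.817) and Psmd10 from 13.5 to 19.96 (log2 change -0.11, limma adjusted p = 0.893). In each of the 3 the highest value was in a WT library and the groups overlapped. Without WT replicate 1 the log2 change of Psmd9 was -0.080 and that of Psmd10 turned to 0.058, and that of Psmd9 was -0.42 without WT replicate 3 and -0.13 without PP2Aa-deficient replicate 1.

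Psme1 and Psme2 encode the subunits of PA28, the interferon-inducible ring that opens the core, and Psme2b has a coding sequence nearly identical to that of Psme2. Psme2 was at 35.6, 30.9 and 27.2 FPKM in the WT libraries and 40.6, 37.9 and 38.4 in the PP2Aa-deficient ones, and every PP2Aa-deficient value was above every WT value. The means were 31.2 ± 4.22 FPKM for WT and 38.9 ± 1.44 for PP2Aa-deficient B cells (SD, n = 3), or 125% of WT, and the difference did not pass over all genes (log2 change 0.32, SE 0.14, 95% interval 0.006 to 0.63, limma adjusted p = 0.519). Psme2b was at 2.65, 3.44 and 3.23 FPKM in the WT libraries and 2.004, 1.49 and 1.897 in the PP2Aa-deficient ones, the other way round, with every PP2Aa-deficient value below every WT value. Its means were 3.11 ± 0.406 FPKM for WT and 1.799 ± 0.269 for PP2Aa-deficient B cells (SD, n = 3), or 57.9% of WT, and it did not pass either (log2 change -0.55, SE 0.20, 95% interval -0.997 to -0.11, limma adjusted p = 0.428).

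Psme2 and Psme2b share nearly all of their coding sequence. In GENCODE M21 both have a coding sequence of 717 bases, on chromosome 14 in a transcript of 11 exons for Psme2 and on chromosome 11 in 1 exon for Psme2b. The sequences differ at 5 bases (99.3% identity), and the longest run without a difference spans 311 bases. The stretch of 150 coding bases with the most differences, bases 394 to 543, is shown because it holds 3 of the 5, in capitals.
Psme2: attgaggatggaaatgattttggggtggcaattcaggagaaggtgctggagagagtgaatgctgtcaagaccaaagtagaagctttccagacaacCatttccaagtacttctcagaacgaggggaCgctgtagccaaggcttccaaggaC
Psme2b: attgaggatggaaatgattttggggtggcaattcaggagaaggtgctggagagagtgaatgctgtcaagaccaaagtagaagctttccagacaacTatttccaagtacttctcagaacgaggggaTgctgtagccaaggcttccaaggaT
How the authors' counting shared such reads is not given in the sources used here, so the split between both genes is uncertain. At the estimated depth Psme2b rested on about 3 to 11 fragments per library and Psme2 on about 67 to 109. Psme2b overlaps 9930111J21Rik1 in RefSeq genes, which was at 7.96, 7.02 and 5.296 FPKM in the WT libraries and 5.47, 6.71 and 7.54 in the PP2Aa-deficient ones.

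The sum of Psme2 and Psme2b does not depend on that split if their lengths are alike. It was 38.2, 34.3 and 30.4 in the WT and 42.6, 39.4 and 40.3 in the PP2Aa-deficient libraries (FPKM), with no overlap, and means of 34.3 ± 3.92 and 40.7 ± 1.66 (SD, n = 3). The two-sided exact permutation p was 0.1, the smallest that 3 against 3 allows, and 0.233 after Benjamini-Hochberg adjustment over the 7 ratios and sums tested. Most of this sum is Psme2, which was singled out because its groups did not overlap, so the p is not independent of Psme2 alone. Psme2b as a percentage of Psme2 was 7.45, 11.1 and 11.9 in the WT and 4.94, 3.95 and 4.94 in the PP2Aa-deficient libraries. With Psme2 higher and Psme2b lower in every PP2Aa-deficient library, this percentage could not overlap between the groups. Its exact permutation p (0.1, adjusted 0.233) was thus fixed by the values of the single genes and is no further evidence. Psme1, the other PA28 subunit, was at 227, 187 and 198 FPKM in the WT libraries and 217, 192 and 222 in the PP2Aa-deficient ones, with overlapping groups (log2 change 0.046, limma adjusted p = 0.942). The ratio of Psme1 to Psme2 alone was 6.37, 6.05 and 7.29 in the WT and 5.35, 5.07 and 5.78 in the PP2Aa-deficient libraries, with no overlap (exact permutation p = 0.1, adjusted 0.233). Since Psme2 enters this ratio too, its p is not independent of that gene either. The ratio of Psme1 to the summed Psme2 and Psme2b was 5.93, 5.45 and 6.51 in the WT and 5.099, 4.88 and 5.51 in the PP2Aa-deficient libraries, where the groups overlapped (exact permutation p = 0.2, adjusted 0.28).

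**Figure D3:**
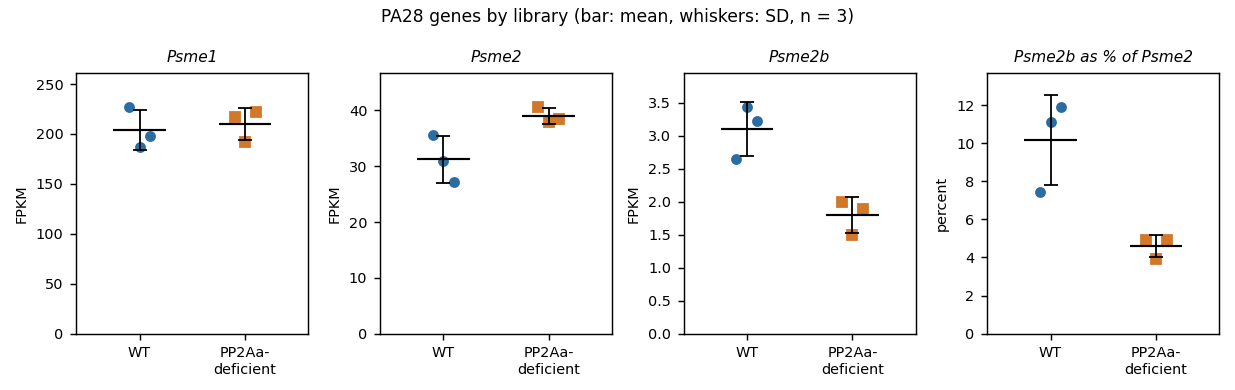
FPKM of Psme1, Psme2 and Psme2b, and Psme2b as a percentage of Psme2, in each WT and PP2Aa-deficient library, with the mean (bar) and SD (whiskers, n = 3) and axes from 0. Psme2 is higher and Psme2b lower in all 3 PP2Aa-deficient libraries, while the groups overlap for Psme1.

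Psme3, which encodes the nuclear relative of PA28, ranged from 8.91 to 12.1 FPKM (log2 change 0.086, limma adjusted p = 0.912). Psme4, the large activator PA200, had the lowest mean of the activators, at 1.64, 2.92 and 2.38 FPKM in the WT libraries and 2.99, 1.95 and 2.56 in the PP2Aa-deficient ones (log2 change 0.087, limma adjusted p = 0.943). Psmf1, encoding the inhibitor PI31, ranged from 7.85 to 10.1 FPKM (log2 change 0.086, limma adjusted p = 0.912). The groups overlapped in all 3. Psmc3ip, which shares the name only, was at 5.81, 2.93 and 3.21 FPKM in the WT libraries and 3.34, 2.02 and 0.5701 in the PP2Aa-deficient ones (log2 change -0.82, SE 0.38, 95% interval -1.69 to 0.052, limma adjusted p = 0.543), on about 2 to 16 fragments per library. Its log2 change was -0.41 without PP2Aa-deficient replicate 3. It had the most negative log2 change of the 45, and without it the median change of the other 44 was -0.036.

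Within each genotype the libraries stood apart from each other across the members. WT replicate 1 held the highest value of 18 of the 45 members, beside 18.3% of all genes tested, and of 9 of the 14 tested core genes. WT replicate 2, the deepest library, held the lowest value of 12 members (26.7%, beside 14.2% of all genes tested). As the median over members of the deviation from each gene's mean, on the log2(FPKM + 1) scale, the libraries stood at 0.16, -0.12 and -0.009 for the WT and at 0.11, -0.070 and -0.011 for the PP2Aa-deficient replicates. Over all genes tested these medians lay between -0.010 and 0.024. The range within WT thus covered all 3 PP2Aa-deficient libraries.

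**Figure D4:**
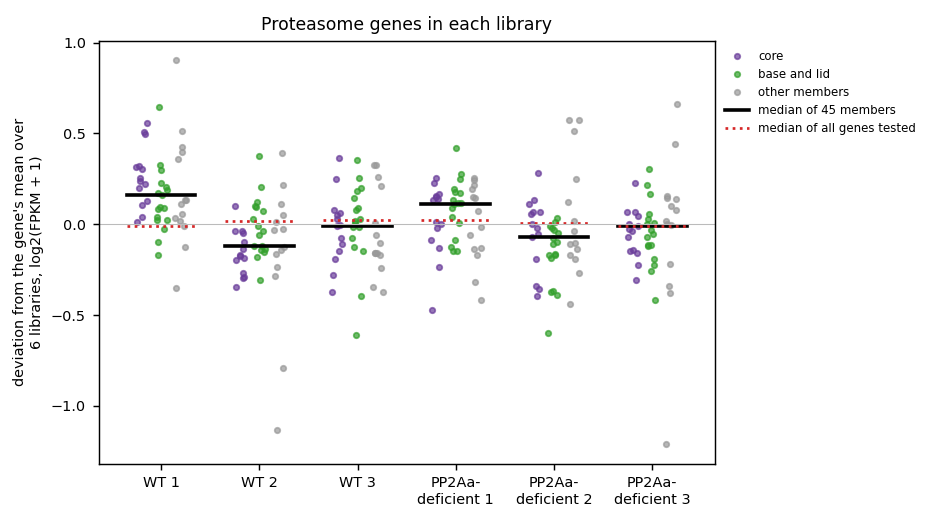
Deviation of each of the 45 tested members from its mean over the 6 libraries, on the log2(FPKM + 1) scale, by library and role, with the median of the members (solid line) and of all genes tested (dotted line). WT 1 and PP2Aa-deficient 1 have the highest medians of the members and WT 2 the lowest, while the dotted lines stay near 0.

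Other measures differed between the same libraries. The inactive X chromosome gene Xist measured 65.2 FPKM in the first WT and 84.5 FPKM in the first PP2Aa-deficient library, the pair with the highest medians of the members, and no more than 0.116 elsewhere. The summed FPKM of 8 plasma cell genes was 2063, 1335 and 1364 in the WT and 748, 986 and 722 in the PP2Aa-deficient libraries, with no overlap. Igj, the joining chain of secreted antibody, was at 1167, 816 and 792 FPKM in the WT libraries and 199.5, 461 and 186 in the PP2Aa-deficient ones, and Mzb1, a chaperone of antibody assembly, at 574, 236 and 284 FPKM in the WT libraries and 326, 302 and 314 in the PP2Aa-deficient ones. All 8 had a log2 change below WT, 5 of them with no overlap of the groups, and 0 of the 8 passed limma's test over all genes (5 at an unadjusted p under 0.05). Of all genes tested 7.4% were lower with no overlap and 4.41% were lower at an unadjusted limma p under 0.05. The summed FPKM of 8 macrophage markers was 365, 248 and 193 in the WT and 110.2, 168 and 111 in the PP2Aa-deficient libraries, also with no overlap, and most of it was Apoe, at 326, 212 and 159 FPKM in the WT libraries and 79.1, 139.9 and 77.3 in the PP2Aa-deficient ones. Of the 7 tested macrophage markers 5 lay below WT and 2 above, namely Lyz2 (log2 change 0.013) and Cd68 (0.071). Only Apoe and Emr1 of these 7 had no overlap of the groups, where 7.4% of all genes tested were lower with no overlap. Among 5 eosinophil and mast cell markers, Epx and Ear1 were listed at 0 in every library, while Prg2 was at 39.9, 21.2 and 33.9 FPKM in the WT libraries and 5.66, 14.6 and 13.7 in the PP2Aa-deficient ones, with no overlap (log2 change -1.46, limma adjusted p = 0.245). With a term for Xist in the fit the members' median log2 change was -0.048. In that fit 4 members reached an unadjusted limma p under 0.05 (Psmb4, Psmc3ip, Psme2 and Psme2b) and 0 passed over all genes. The part of these differences in the proteasome values was otherwise not tested. Without WT replicate 1, 6 members reached an unadjusted limma p under 0.05 in place of 3 (Psma5, Psma7, Psmd3, Psme2, Psme2b and Psmg3), Psmb4 was no longer among them, and 0 of the 45 passed over all genes.

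Genes that work with the proteasome but lie outside the name family were read from the same fit: 17 partners, 12 transcription regulators of proteasome genes and 13 genes of ubiquitin and of the unfolding ATPase Vcp. None of these 42 passed over all genes, and 5 reached an unadjusted limma p under 0.05, beside 9.47% of all genes tested. Of the 17 partners 13 lay above WT, with a median log2 change of 0.20, and 5 were above WT with no overlap of the groups, where 7.7% of all genes tested were. Their summed level was 355, 313 and 334 in the WT and 398, 419 and 418 in the PP2Aa-deficient libraries, with no overlap, and the sum was not tested. Most of its rise came from Shfm1 (means of 87.8 FPKM for WT and 125 for PP2Aa-deficient), Pomp (82.2 and 98.7) and Ubqln1 (18.1 and 34.6). The groups overlapped in Pomp, and 4 of the 17 partners lay below WT. The lists were chosen with earlier results of these data known, so these counts are a description only.

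Ubqln1, encoding a shuttle that carries ubiquitin-tagged proteins to the proteasome, was at 20.2, 17.2 and 17.005 FPKM in the WT libraries and 35.8, 36.7 and 31.2 in the PP2Aa-deficient ones. All 3 PP2Aa-deficient values were above every WT value, with means of 18.1 ± 1.79 FPKM for WT and 34.6 ± 2.97 for PP2Aa-deficient B cells (SD, n = 3), or 191% of WT. The unadjusted limma p was 0.000137, and the difference did not pass over all genes (log2 change 0.89, SE 0.14, 95% interval 0.58 to 1.21, limma adjusted p = 0.0809), although it did with array weights (limma adjusted p = 0.0419). Shfm1, the smallest subunit of the lid, which the name rule does not reach, was at 91.2, 68.7 and 103 FPKM in the WT libraries and 108, 148 and 119 in the PP2Aa-deficient ones, with no overlap (log2 change 0.51, SE 0.18, 95% interval 0.103 to 0.92, limma adjusted p = 0.425). Zfand2a, a proteasome-binding protein induced by arsenite, was at 8.15, 9.88 and 8.97 FPKM in the WT libraries and 11.7, 11.7 and 13.6 in the PP2Aa-deficient ones, also with no overlap (log2 change 0.41, SE 0.15, 95% interval 0.074 to 0.75, limma adjusted p = 0.434).

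Among the regulators, Nfyc, a subunit of the factor that binds CCAAT, was at 41.8, 40.3 and 43.1 FPKM in the WT libraries and 31.5, 37.4 and 29.7 in the PP2Aa-deficient ones, with every PP2Aa-deficient value below WT (log2 change -0.34, SE 0.13, 95% interval -0.64 to -0.043, limma adjusted p = 0.468). Ddi2, the protease that activates the product of Nfe2l1, was at 1.204, 2.63 and 2.18 FPKM in the WT libraries and 2.15, 4.28 and 4.09 in the PP2Aa-deficient ones (log2 change 0.58, SE 0.28, 95% interval -0.062 to 1.22, limma adjusted p = 0.558). Nfe2l1 itself ranged from 7.63 to 11.1 FPKM (log2 change 0.23, limma adjusted p = 0.703), and Foxo4, reported to raise the lid gene PSMD11 in human stem cells, from 1.62 to 5.16 (log2 change -0.43, limma adjusted p = 0.688). The groups overlapped in these 3.

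Among the ubiquitin genes, Faf1, an adaptor of Vcp, was at 4.08, 2.73 and 2.48 FPKM in the WT libraries and 6.52, 7.602 and 4.97 in the PP2Aa-deficient ones, with no overlap of the groups (log2 change 0.85, SE 0.22, 95% interval 0.35 to 1.35, limma adjusted p = 0.258). Its close relative Faf2 ranged from 6.095 to 7.82 FPKM with a log2 change of -0.104. Uba6, an enzyme that activates ubiquitin, was at 3.95, 4.801 and 6.77 FPKM in the WT libraries and 3.92, 4.75 and 3.14 in the PP2Aa-deficient ones (log2 change -0.31, limma adjusted p = 0.729). Vcp ranged from 31.9 to 42.1 FPKM, with a log2 change of -0.15. Of the 13 genes 10 lay below WT, with a median log2 change of -0.14.

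**Figure D5:**
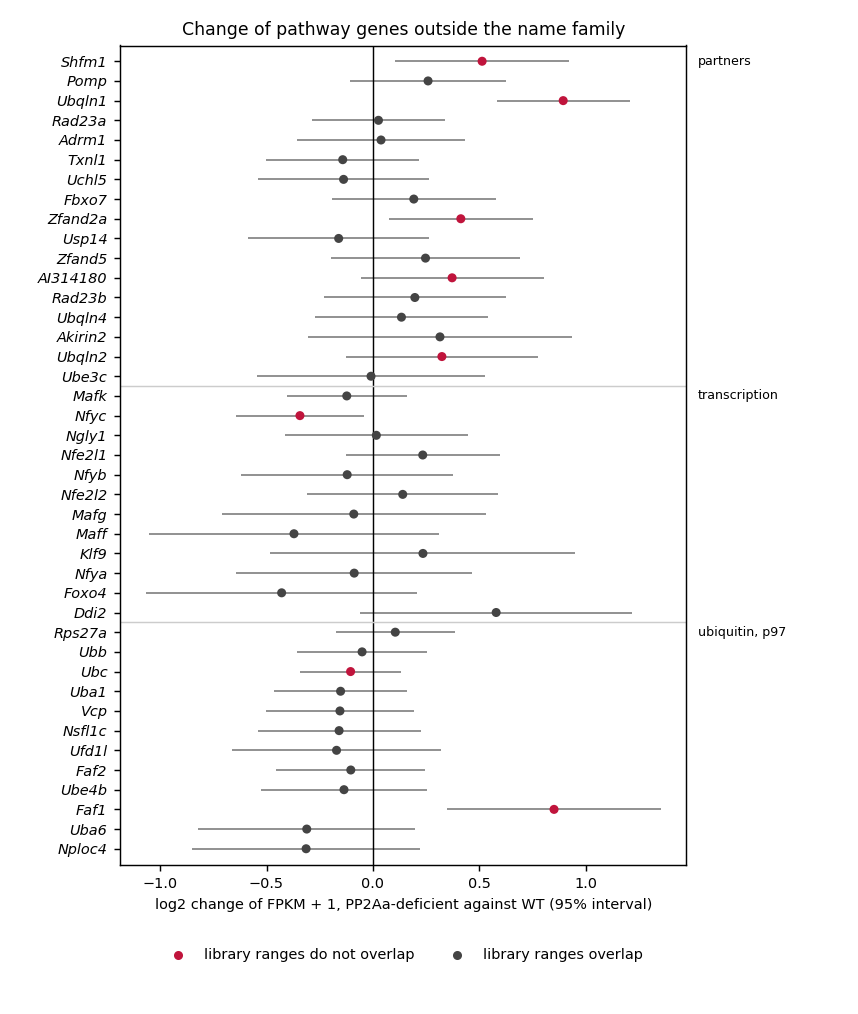
Log2 change of FPKM + 1 in PP2Aa-deficient against WT B cells for 41 of the 42 genes that work with the proteasome, in 3 lists and within each list by level, with 95% intervals from limma (n = 3 libraries per group). Ubqln1 and Faf1 have the largest changes, at 0.89 and 0.85, and coloured points mark the genes whose library ranges do not overlap.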

How the data were processed

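Expression was deposited by the authors as 1 table of FPKM, fragments scaled to transcript length and library size, 1 column per library and row names as gene symbols. Per the submitters' processing notes, BWA, TopHat2 2.0.10, Cufflinks 2.2.1 and Cuffnorm were used, with no role given. Build, annotation, read length, strand and the treatment of shared reads were not given in the sources used here. Per the labels' protocols, total RNA went into a low-input SmartSeq2 library preparation. Columns were matched to samples by the plate well in the table and in the sample titles, and groups came from the source label. A deposited plate sheet marks the wells of the WT libraries as miRNA control and those of the PP2Aa-deficient libraries as miRNA target, words that differ from the genotype labels and were not used for grouping. Its 6 other wells were not analysed here, and some items, 1 outside gene and a part of the genotype among them, are not reported here.

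Of 22815 rows, 27 carried dates in place of symbols and were left out. The 9425 genes with at least 1 FPKM in at least 3 libraries were compared as log2(FPKM + 1) by limma 3.58.1 under R 4.3.3, using its moderated two-sided test with a trended variance and Benjamini-Hochberg adjustment over all of them at 0.05. No p was adjusted over the members alone and no set test was run. FPKM leaves out depth, so relative depth was taken from the most common ratio of values under 0.6 FPKM between libraries, and approximate fragments from transcript lengths in GENCODE M21, which may not be the authors' annotation. A gene can have more than 1 transcript, so fragment numbers are rough, and a value of 0 can be a failed estimate.

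The name rule, the role groups and the other gene lists were chosen with earlier results of these data known. Per role, the rule for named genes took those that passed, those whose groups did not overlap, the highest and lowest by mean FPKM, up to 2 of smallest p and those near 0. It took up to 3 of smallest p per outside list, the inducible subunits and up to 2 markers per cell type. Psma7, Psme3, Psmc6, Psmd12, Pomp, Nfe2l1, Faf2, Vcp, Xist and further markers were named after their values were seen. Summed levels and ratios were computed within a library, and ratios were compared by two-sided exact permutation tests. Coding sequences of GENCODE M21 were aligned globally with Biopython 1.88, and promoters came from RefSeq (GRCm38.p6). Summaries, tests of ratios and plots used Python 3.11.15 (matplotlib 3.10.9, numpy 2.4.6, pandas 2.3.3, scipy 1.17.1). In RefSeq genes 14 members overlap another gene, whose reads may not be separable. The alternatives were other pseudocounts, filters, scalings and variance models, array weights, leaving out each library, and terms for Xist and relative depth.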

Additional observations from a re-analysis of the deposited data

How the results depend on the processing

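Of 16 alternatives, 0 called a proteasome member over all genes. The count of members at an unadjusted limma p under 0.05 was 1 without the mean-variance trend and 2 to 6 when 1 library was left out, highest without WT replicate 1. The members' median log2 change was -0.093 to 0.019, so its sign is not settled. Over all genes 13 were called without the filter, 5 when it was set at 5 FPKM, 11 with quantile normalization, 9 without the trend, 16 with array weights and 1 to 13 when 1 library was left out. Among the outside lists 1 gene, Ubqln1, was called with array weights (log2 change 0.92, limma adjusted p = 0.0419). Its adjusted p ranged from 0.0419 to 0.346 over the alternatives. Psmb4, Psme2 and Psme2b kept their direction in all alternatives that tested them, with limma adjusted p from 0.343 to 0.998, 0.301 to 0.893 and 0.261 to 0.753. Their unadjusted p stayed under 0.05 in 11 of 16, 9 of 16 and 11 of 15 alternatives.

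Log2 changes near 0 changed sign. With array weights Psma2 was at 0.019, Psma4 0.016, Psmb5 0.039, Psmb9 0.11, Psmd7 0.060 and Psmd8 0.007, and with quantile normalization Psma2 was at 0.024. With a term for relative depth, which like the term for Xist was chosen after seeing the data, Psmb1 was at -0.033, Psmb6 -0.093 and Psmb8 -0.048. When 1 library was left out, the log2 changes that changed sign ranged as Psma2 -0.12 to 0.041, Psma4 -0.31 to 0.15, Psmb1 -0.021 to 0.20, Psmb10 -0.008 to 0.14, Psmb5 -0.15 to 0.13, Psmb6 -0.080 to 0.23, Psmb8 -0.036 to 0.28, Psmb9 -0.38 to 0.19, Psmd10 -0.20 to 0.058, Psmd7 -0.27 to 0.13, Psmd8 -0.17 to 0.035, Psme1 -0.014 to 0.12, Psme4 -0.068 to 0.22, Psmg4 -0.001 to 0.47. None of these genes passed the test in any setting. When 1 library was left out, Psmb7 ranged from -0.42 to -0.13, Ddi2 from 0.37 to 0.82, Foxo4 from -0.62 to -0.18 and Uba6 from -0.46 to -0.13. No paired analysis was possible because the labels give no replicate numbers, and the numbers used here only name libraries within a group. Members of few fragments, such as Psme2b and Psmc3ip, are limited by depth, and the cause of none of these shifts was tested.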
